A study of Mus musculus with 4 samples.

Results

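Sterol and fatty acid synthesis genes form a textbook set of 41 genes, chosen by function, but with earlier results of these data known. The set holds the enzymes that make cholesterol, the SREBP system that controls them and the enzymes of fatty acid synthesis. It also holds the LXR receptors with the cholesterol exporters, and carriers that move or store sterols. The genes were found on the array by matching the accession of each probe to RefSeq transcripts. All 41 were found, among 19896 genes named in this way. They are read by 56 probes, with 27 genes on 1 probe and 14 on several.

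The genes were measured in CD4 T cells, the helper lymphocytes, taken from lymph nodes of male mice aged 7 weeks. The groups were cells labelled as Med23 knockout (KO) stimulated for 6 h, KO cells left unstimulated, wildtype (WT) cells stimulated for 6 h, and WT cells left unstimulated. Med23 encodes one subunit of Mediator, through which transcription factors reach RNA polymerase II. Each group had 1 single-colour Agilent array and no replicate. The sources used here do not give the allele, the cells in which it acts, the stimulating agent or any pooling of animals.

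Cholesterol is built from acetyl-CoA through mevalonate, the isoprenoid farnesyl diphosphate, squalene and lanosterol, and each step has its own enzyme. When sterols in the endoplasmic reticulum run low, Scap carries the SREBP factors to the Golgi, where they are cut and released to the nucleus to activate synthesis genes. Insig proteins hold Scap back when sterols are plentiful. Oxysterols activate the LXR receptors, which turn on exporters and the ubiquitin ligase Mylip, so the LXR and SREBP programmes tend to oppose each other. Proliferating T cells need new membrane, and activation of the SREBP programme with repression of LXR targets is a known part of T cell activation.

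A level below is a gene's log2 signal minus its array's 75th percentile, averaged over its probes, and a difference is a log2 difference of levels. Values under a floor of -5.01, set because the table has no detection flags, were raised to the floor. Of the 41 genes, 39 were above the floor in all 4 arrays. Scd1 was above it in the unstimulated KO array at -4.62, and Fads2 in the stimulated WT array at -4.79, with both at the floor in the other arrays. With 1 array a group, a gene is called higher or lower by size, at a 2-fold difference. Stimulation was also tested over both genotypes with limma, in an additive model of genotype and stimulation on 2 stimulated and 2 unstimulated arrays. A gene is said to have risen or fallen where its Benjamini-Hochberg adjusted p, over 13804 genes tested, was under 0.05. That model leaves 1 residual degree of freedom a gene, which is the difference between the genotypes' responses, so a gene that responds unequally gets a large error.

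The arrays differed in brightness and in other cells' markers. The raw signal had its 75th percentile at 243.7 and 332.6 in the stimulated and unstimulated KO arrays, against 680.8 and 269.1 in the stimulated and unstimulated WT arrays. The single Med23 probe read -2.29 in the stimulated KO array against -0.75 in the stimulated WT array, and -1.66 in the unstimulated KO array against -1.59 in the unstimulated WT array. The unstimulated pair thus showed almost no difference at this probe. The place of the probe relative to the altered part of the gene is not known, so the probe cannot decide the label. "KO" stands throughout for the array labelled knockout. All 8 CD4 T cell markers were above the floor in every array, while the B cell markers summed to at most 1.85 in linear level. All 6 activation markers were over 2-fold higher after stimulation in both genotypes. The stimulated WT array held neutrophil markers summing to 291 in linear level, with 10 of 10 above the floor, against 2.57 to 3.20 in the other arrays, with 5 or 6 of 10 above it. Red cell markers summed to 154 there against 0.807 to 0.917 elsewhere, with Epb42 at the floor in all arrays, and monocyte and macrophage markers to 67.4 against 20.9 to 48.9. By count, 0 of 9 of these markers were 2-fold higher and 4 lower after stimulation in KO, while 7 of 9 were higher in WT, with a median of 3.93. The part of these cells in differences that use that array was not tested. In such bulk RNA, fewer cells of a type and less RNA per cell cannot be told apart.

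After stimulation 7 of 18 sterol synthesis genes rose, and both cholesterol exporters fell. Over both genotypes, 9 of the 39 genes tested rose and 4 fell (limma, adjusted p under 0.05), against 7.09% of all genes that rose and 7.25% that fell. The 9 were 7 sterol synthesis enzymes, the SREBP retention protein Insig1 and the fatty acid synthase Fasn. The 4 were the cholesterol exporters Abca1 and Abcg1, the acetyl-CoA synthetase Acss2 and the desaturase Scd2. By size in each genotype alone, 14 of 40 measured genes were 2-fold higher and 8 lower in KO (all genes 13.5% and 13.8%). In WT 9 of 40 were higher and 6 lower (all genes 14.2% and 12.8%). The WT split over all genes depended on the scaling: 52.6% of called genes were on the higher side, 36.2% with scaling to the median and 41.6% in the authors' values, as the all-gene median moved to -0.23 and -0.18. The pairs of arrays behind these counts share no array. All 9 genes that were higher in WT were among the 14 higher in KO, and 4 of the 8 lower in KO were among the 6 lower in WT. The same overlap over all genes is not given here, so the overlap is not read as particular to this set.

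**Figure D1:**
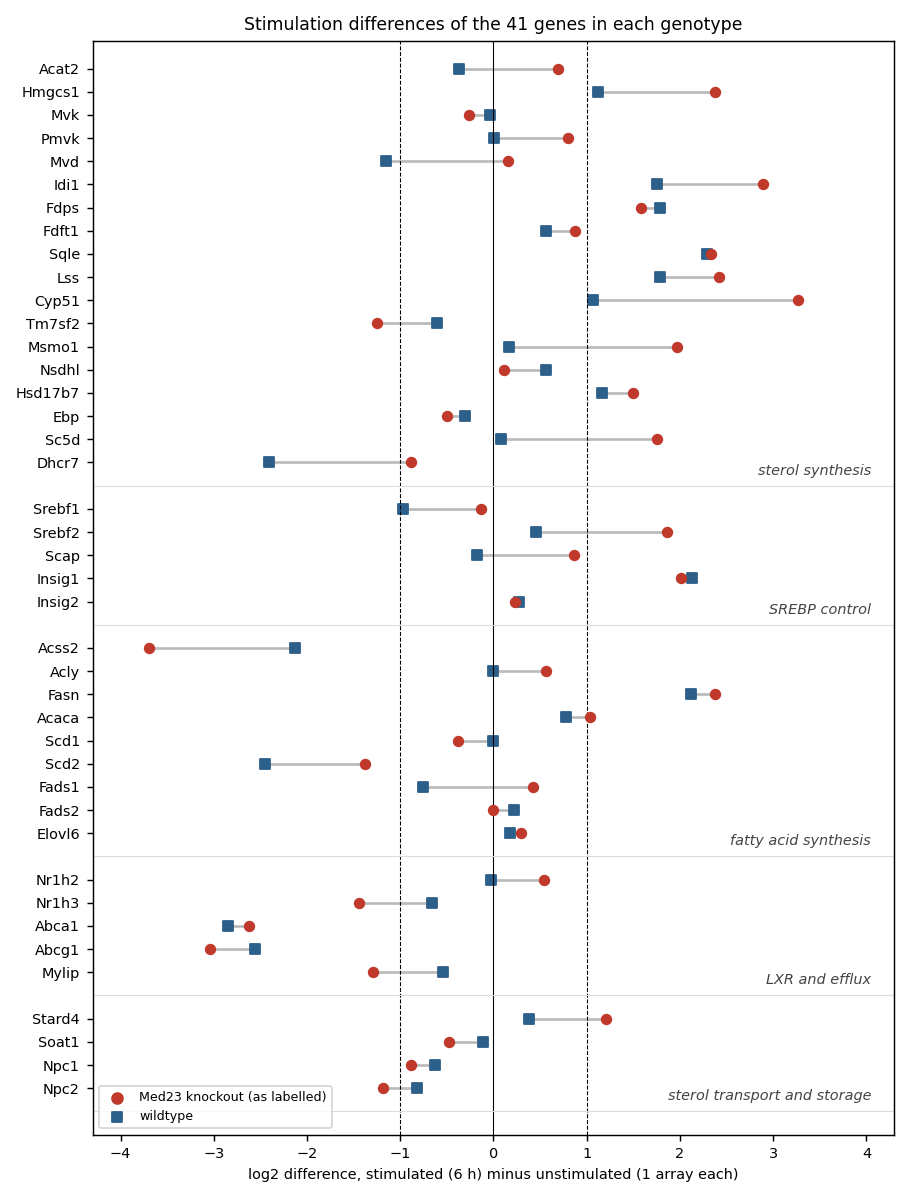
Log2 difference between the stimulated and the unstimulated array for each of the 41 genes, grouped by role, with KO as circles and WT as squares, and dashed lines at 2-fold. Sqle, Insig1, Fasn, Abca1 and Abcg1 lie past 2-fold with the genotypes close together, while Cyp51, Msmo1 and Sc5d lie further to the right in KO.

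In the mevalonate part of the pathway Hmgcs1, Idi1 and Fdps rose, and the other 4 genes did not pass the test. Hmgcs1, which makes HMG-CoA, had a level of 4.10 in the stimulated against 1.72 in the unstimulated KO array, and of 2.88 in the stimulated against 1.76 in the unstimulated WT array. Both stimulated arrays were above both unstimulated ones, and the gene rose by 1.75 ± 0.37 (log2 difference ± SE, 2 against 2 arrays, limma adjusted p = 0.030). Idi1, which isomerises isopentenyl diphosphate, had 5.24 in the stimulated against 2.35 in the unstimulated KO array, and 4.04 against 2.28 in the same order in WT. It was 7.41-fold higher in KO and 3.38-fold higher in WT, and rose by 2.32 ± 0.36 over both (adjusted p = 0.014). Fdps, the farnesyl diphosphate synthase, had 2.90 against 1.31 in KO and 3.23 against 1.44 in WT, stimulated first, and rose by 1.68 ± 0.28 (adjusted p = 0.016). Its genotypes responded almost equally, at 1.58 in KO and 1.79 in WT.

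The other mevalonate enzymes did not pass the test. Acat2, the thiolase that starts the pathway, differed by 0.70 in KO and by -0.37 in WT. Pmvk, the phosphomevalonate kinase, differed by 0.80 in KO and by 0.00 in WT, where its 2 probes pointed in opposite directions (-0.30 and 0.30). Mvk, the mevalonate kinase, differed by -0.26 and -0.04, but its 2 probes pointed in opposite directions in each genotype. Mvd, the decarboxylase after the kinases, had levels of 0.32 in the stimulated and 0.16 in the unstimulated KO array, against -0.80 in the stimulated and 0.35 in the unstimulated WT array. The stimulated WT array was the low one of the 4, and Mvd was 2.22-fold lower after stimulation in WT.

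Of the enzymes from squalene to cholesterol, Sqle, Lss, Cyp51 and Hsd17b7 rose. Sqle, the squalene epoxidase and a control point of the pathway, had levels of 4.20 against 1.87 in KO and 4.21 against 1.93 in WT, each stimulated against unstimulated. The genotypes were nearly superimposed, and Sqle rose 4.95-fold (2.31 ± 0.28, adjusted p = 0.0078). Lss, which closes squalene epoxide into lanosterol, had -1.23 against -3.65 in KO and -1.49 against -3.27 in WT, and rose by 2.10 ± 0.36 (adjusted p = 0.017). Cyp51, the lanosterol demethylase, had 2.46 against -0.81 in KO and 0.70 against -0.37 in WT. It was 9.63-fold higher in KO, the largest positive difference among the 41 genes, and 2.10-fold higher in WT. It rose by 2.17 ± 0.52 (adjusted p = 0.042), with the largest SE of the 39 genes. Hsd17b7, a 3-ketosteroid reductase, had -1.88 against -3.38 in KO and -2.29 against -3.46 in WT (1.33 ± 0.34, adjusted p = 0.049). Its probes disagreed in size: the brighter differed by 1.85 in KO and 0.16 in WT, and the dimmer, at the floor in the unstimulated WT array, by 1.15 in KO and 2.18 in WT. The call of Hsd17b7 was lost in 6 of the 7 other treatments of the values, with adjusted p of 0.055 to 0.164.

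Msmo1 and Sc5d, the methyl sterol oxidase and the lathosterol oxidase, were higher in KO and near 0 in WT. Msmo1 had 4.06 in the stimulated against 2.09 in the unstimulated KO array, and 2.47 against 2.31 in WT. Sc5d had 3.31 against 1.55 in KO and 2.10 against 2.01 in WT. In both genes the stimulated KO array stood above the other 3, and neither passed the test over both genotypes (adjusted p = 0.170 and 0.208). Fdft1, the squalene synthase, averaged 0.87 in KO and 0.56 in WT, but one of its 2 probes was at the floor in all arrays. The other probe differed by 1.74 and 1.12.

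Dhcr7, Tm7sf2, Ebp and Nsdhl did not pass the test. Dhcr7, which makes cholesterol from its last precursor, had levels of -0.79 in the stimulated against 0.09 in the unstimulated KO array, and of -1.93 against 0.48 in WT. Both stimulated arrays were below both unstimulated ones, and Dhcr7 differed by -1.65 ± 0.43 over both genotypes (adjusted p = 0.052). Tm7sf2, a sterol reductase, was 2.38-fold lower in KO (-1.25) and differed by -0.61 in WT (adjusted p = 0.128). Ebp, the sterol isomerase, differed by -0.50 and -0.30, and Nsdhl, the sterol dehydrogenase, by 0.11 and 0.56. The count for the 18 sterol synthesis genes was thus 9 higher and 1 lower in KO (all genes 13.5% and 13.8%), with a median of 1.18. It was 7 higher and 2 lower in WT (all genes 14.2% and 12.8%), with a median of 0.36. Medians over all measured genes were 0.05 in KO and -0.02 in WT. The WT median of the 18 was lower under other treatments, at 0.10 in the authors' values, 0.11 with scaling to the median or the pseudocount, 0.16 with the brightest probe and 0.08 under a 60th-percentile floor. The all-gene median moved too. Above the all-gene median of the same treatment, the 18 stood 0.38 as reported and 0.28 in the authors' values. They stood 0.35 above it with scaling to the median, 0.68 with the pseudocount, 0.22 with the brightest probe and 0.17 under the 60th-percentile floor.

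**Figure D2:**
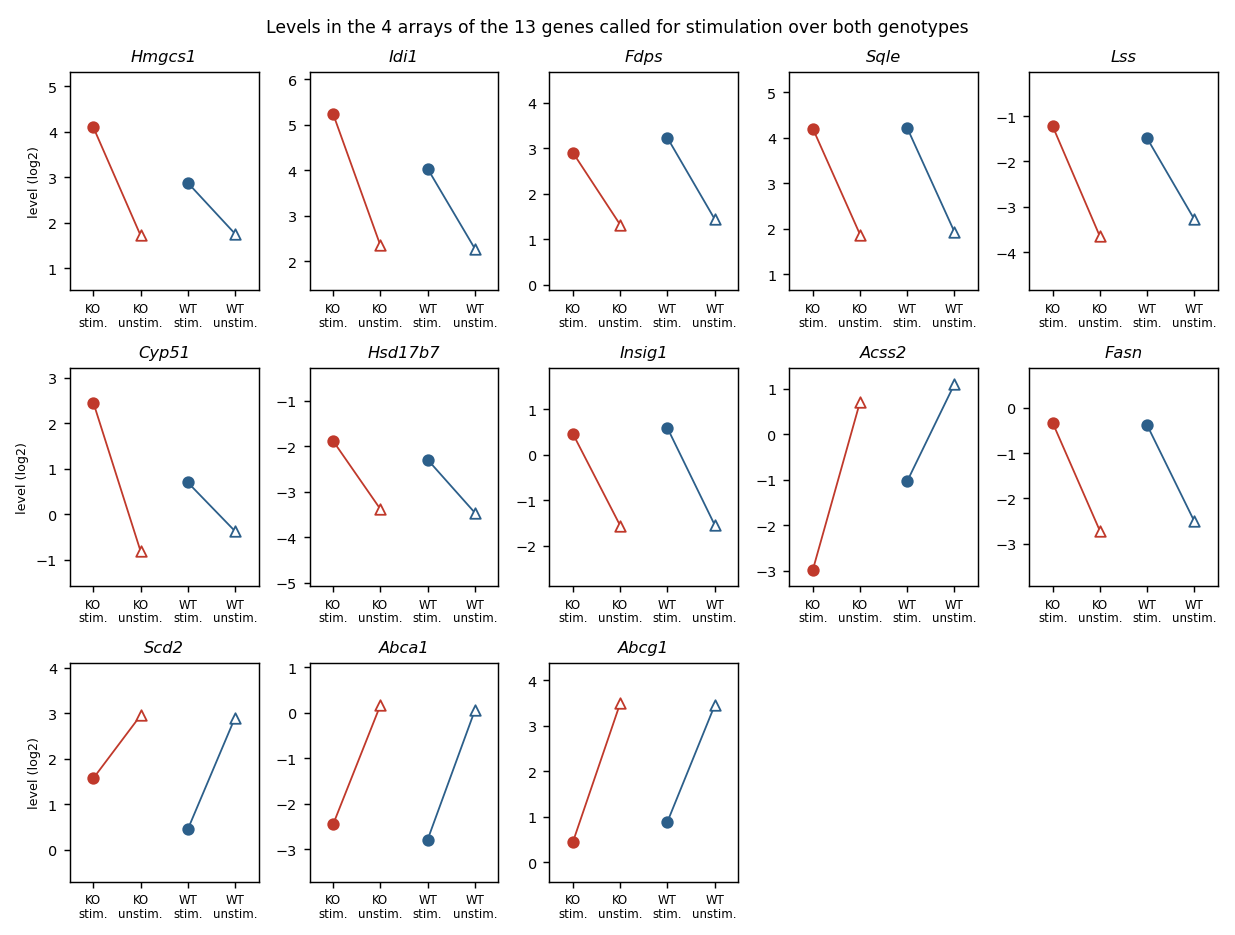
Level of each of the 13 genes that rose or fell over both genotypes in the 4 arrays, as log2 signal minus the array's 75th percentile, with KO left of WT and stimulated left of unstimulated, every panel spanning the same log2 range. Within each panel both stimulated arrays lie on the same side of both unstimulated arrays.

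Promoters of 6 of the genes that rose are shown because many sterol synthesis promoters are known to hold CCAAT boxes, the site of the factor NF-Y, which works with SREBP. The windows run from 250 bases before to 50 after the gene start, from RefSeq on GRCm38.p6, in gene orientation, and 32 of the 41 genes matched the table, in 41 windows. They are Idi1 on chr13:8885356-8885655, plus strand, Hmgcs1 on chr13:119690101-119690400, plus strand, Cyp51 on chr5:4104648-4104947, minus strand, Hsd17b7 on chr1:169969156-169969455, minus strand, Insig1 on chr5:28071162-28071461, plus strand and Fasn on chr11:120824498-120824797, minus strand, with Abca1 on chr4:53159846-53160145, minus strand as a gene that fell. The window of Lss, which also rose, holds 1 CCAAT and is not printed. Capitals mark CCAAT on either strand and, in Hmgcs1, the sterol regulatory element.
Idi1: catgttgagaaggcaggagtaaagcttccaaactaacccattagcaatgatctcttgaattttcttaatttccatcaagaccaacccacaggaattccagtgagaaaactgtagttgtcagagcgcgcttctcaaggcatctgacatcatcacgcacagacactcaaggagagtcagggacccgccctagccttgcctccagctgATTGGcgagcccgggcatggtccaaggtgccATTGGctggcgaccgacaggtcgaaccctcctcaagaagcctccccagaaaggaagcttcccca
Hmgcs1: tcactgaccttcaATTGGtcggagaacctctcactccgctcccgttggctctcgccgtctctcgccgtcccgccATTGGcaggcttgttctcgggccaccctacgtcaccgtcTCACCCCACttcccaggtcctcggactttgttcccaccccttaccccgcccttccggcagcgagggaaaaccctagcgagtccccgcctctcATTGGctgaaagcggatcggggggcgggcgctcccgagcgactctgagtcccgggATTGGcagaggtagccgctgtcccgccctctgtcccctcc
Cyp51: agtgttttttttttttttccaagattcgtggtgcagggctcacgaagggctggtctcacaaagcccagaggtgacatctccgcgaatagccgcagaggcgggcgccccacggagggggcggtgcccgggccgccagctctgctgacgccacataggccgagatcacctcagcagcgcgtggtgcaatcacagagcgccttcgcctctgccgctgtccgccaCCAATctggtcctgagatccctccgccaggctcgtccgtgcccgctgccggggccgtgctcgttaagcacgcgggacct
Hsd17b7: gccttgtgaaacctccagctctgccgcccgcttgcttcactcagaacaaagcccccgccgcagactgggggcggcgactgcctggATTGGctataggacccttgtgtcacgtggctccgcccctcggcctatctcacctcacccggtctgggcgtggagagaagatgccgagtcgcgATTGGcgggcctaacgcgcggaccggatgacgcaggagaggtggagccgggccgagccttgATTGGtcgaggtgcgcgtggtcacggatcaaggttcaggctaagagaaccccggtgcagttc
Insig1: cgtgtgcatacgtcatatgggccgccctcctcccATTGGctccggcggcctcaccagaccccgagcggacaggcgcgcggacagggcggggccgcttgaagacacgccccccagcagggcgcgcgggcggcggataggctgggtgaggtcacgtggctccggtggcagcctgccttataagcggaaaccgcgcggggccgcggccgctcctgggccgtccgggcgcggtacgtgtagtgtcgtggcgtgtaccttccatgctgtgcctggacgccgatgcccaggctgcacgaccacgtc
Fasn: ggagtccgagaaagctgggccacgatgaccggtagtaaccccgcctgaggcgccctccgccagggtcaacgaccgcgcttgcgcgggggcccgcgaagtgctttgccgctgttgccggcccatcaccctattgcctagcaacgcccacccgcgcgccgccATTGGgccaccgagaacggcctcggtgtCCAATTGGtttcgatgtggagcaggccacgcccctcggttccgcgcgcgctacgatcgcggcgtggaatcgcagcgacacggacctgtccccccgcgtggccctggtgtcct
Abca1: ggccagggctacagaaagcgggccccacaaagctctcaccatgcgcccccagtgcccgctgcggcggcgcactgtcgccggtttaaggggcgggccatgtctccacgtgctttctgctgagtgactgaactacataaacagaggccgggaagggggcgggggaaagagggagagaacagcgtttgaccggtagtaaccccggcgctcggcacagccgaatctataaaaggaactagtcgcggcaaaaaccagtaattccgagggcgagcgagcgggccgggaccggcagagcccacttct

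All motifs were searched on both strands. CCAAT was found in 14 of 18 windows of sterol synthesis genes (77.8%), against 37.4% of all 32851 windows, with copies allowed to overlap as in Fasn. It was present in all 5 of the risen sterol genes that have a window, and in 9 of the 10 that did not pass the test, so its presence did not separate them. In the LXR and efflux group 1 of 5 windows held it, that of Mylip, and Abca1 held none. The strict sterol regulatory element TCACNCCAC occurred in 1 of the 41 windows, that of Hmgcs1, against 1.24% of all windows. The GC box GGGCGG occurred in 30 of the 41 (73.2%), against 35.7% of all. These matches describe letters in a short window and were not tested against the response.

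Among the genes of SREBP control, Insig1 rose and its paralog Insig2 did not pass the test. Insig1, itself a textbook SREBP target, had levels of 0.45 in the stimulated against -1.56 in the unstimulated KO array, and of 0.59 against -1.54 in WT. It was 4.04-fold higher in KO and 4.37-fold higher in WT, and rose by 2.07 ± 0.31 (adjusted p = 0.012). Insig2 differed by 0.24 in KO and 0.27 in WT (0.25, 95% interval -0.51 to 1.02). Its WT value averages 2 probes of opposite direction, the brighter at -0.52 and the dimmer at 1.06.

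Neither the SREBP genes nor Scap passed the test. Srebf2, which encodes the SREBP that drives sterol synthesis, had 1.74 against -0.11 in KO and 1.02 against 0.57 in WT, each stimulated against unstimulated. It was 3.62-fold higher in KO and 1.37-fold higher in WT (1.15 ± 0.40 over both, adjusted p = 0.106), and its brighter probe differed by 1.88 in KO and 0.06 in WT. Srebf1, whose product favours fatty acid synthesis genes, differed by -0.13 in KO and -0.97 in WT (adjusted p = 0.333). Scap, the escort of the SREBPs, differed by 0.87 in KO and -0.18 in WT (adjusted p = 0.587).

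Of 7 fatty acid synthesis genes tested, Fasn rose, Acss2 and Scd2 fell, and the other 4 did not pass the test. Of all genes tested 7.09% rose and 7.25% fell. Fasn, which assembles palmitate, had levels of -0.34 against -2.71 in KO and -0.39 against -2.50 in WT, stimulated against unstimulated. It was 5.19-fold and 4.33-fold higher in KO and WT and rose by 2.25 ± 0.33 (adjusted p = 0.012). Acaca, the acetyl-CoA carboxylase that supplies malonyl-CoA, averaged 1.04 in KO and 0.78 in WT (adjusted p = 0.127). Of its 3 probes, one was at the floor in all arrays and one in both unstimulated arrays, and the bright one differed by 2.09 in KO and 1.38 in WT.

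Acss2, which makes acetyl-CoA from acetate in the cytosol and nucleus, had levels of -2.98 in the stimulated against 0.71 in the unstimulated KO array, and of -1.03 against 1.10 in WT. Both probes were lower in both genotypes. It was 12.9-fold lower in KO, the largest difference among the 41 genes, and 4.39-fold lower in WT, and fell by 2.91 ± 0.43 on the log2 scale (adjusted p = 0.013). Scd2, a stearoyl-CoA desaturase, had 1.57 against 2.95 in KO and 0.44 against 2.90 in WT. It was 2.61-fold lower in KO and 5.48-fold lower in WT, and fell by 1.92 ± 0.35 (adjusted p = 0.020). The remaining genes stayed within 2-fold in both genotypes: Acly, the citrate lyase, at 0.56 in KO and -0.01 in WT, the elongase Elovl6 at 0.30 and 0.17, and the desaturase Fads1 at 0.43 and -0.76. The WT value of Acly averages 2 probes of opposite direction (-0.13 and 0.12). The near-floor genes Scd1 and Fads2 were not tested.

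In the LXR and efflux group 2 of 5 genes fell, and none rose (all genes 7.25% and 7.09%). Abca1, which exports cholesterol to apolipoprotein A-I, had levels of -2.45 in the stimulated against 0.17 in the unstimulated KO array, and of -2.79 against 0.05 in WT. It was 6.14-fold lower in KO and 7.17-fold lower in WT, and fell by 2.73 ± 0.32 (adjusted p = 0.0075). Abcg1, which exports cholesterol to high-density lipoprotein, had 0.45 against 3.49 in KO and 0.89 against 3.44 in WT, and fell by 2.80 ± 0.29 (adjusted p = 0.0062). Its adjusted p was the lowest of the 39 genes. For both exporters the genotypes differed by less than 0.5 within either state.

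The receptors and the ligase did not pass the test. Nr1h3, which encodes LXR alpha, had levels near the floor, -4.37 against -2.94 in KO and -3.38 against -2.72 in WT, and differed by -1.05 ± 0.36 over both (adjusted p = 0.107). Nr1h2, which encodes LXR beta, had 5.54 against 4.996 in KO and 5.08 against 5.11 in WT, with 0.26 over both (95% interval -0.53 to 1.05). Mylip, the LXR-induced ligase that degrades lipoprotein receptors, differed by -1.30 in KO and -0.54 in WT (adjusted p = 0.139). Its bright probe differed by -1.55 and -1.25, and its dim probe by -1.04 and 0.17. The median of the 5 genes was -1.44 in KO and -0.66 in WT. The KO median was -0.78 under a 60th-percentile floor, and the WT median was -1.25 with the brightest probe or in the authors' values.

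None of the 4 sterol transport and storage genes passed the test. Stard4, which shuttles sterol between membranes and is a known SREBP target, averaged 1.21 in KO and 0.39 in WT (adjusted p = 0.167), but its brighter probe differed by 0.56 and -0.39 and its dimmer by 1.86 and 1.16. Npc2, which lifts cholesterol out of the lysosome, had 2.04 against 3.23 in KO and 2.42 against 3.24 in WT, stimulated against unstimulated, with -1.003 ± 0.28 over both (adjusted p = 0.065). Its partner Npc1 differed by -0.89 and -0.63, and the esterifying enzyme Soat1 by -0.48 and -0.11.

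**Figure D3:**
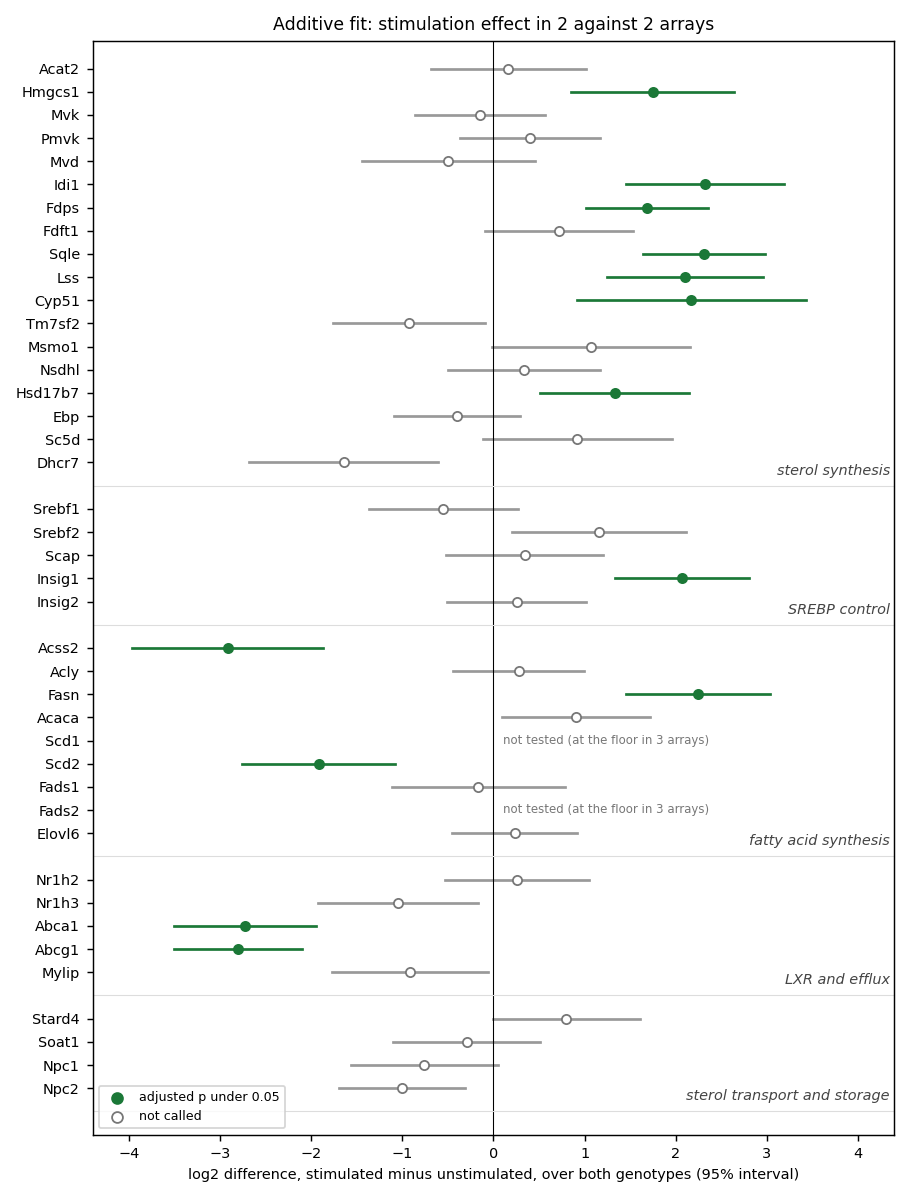
Stimulation effect over both genotypes from the additive limma model, as a log2 difference with its 95% interval, for the 39 genes tested, grouped by role. Filled points are the 9 genes that rose and the 4 that fell at an adjusted p under 0.05.

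The test over both genotypes rests on few arrays. With 1 array left out the other factor has to be dropped, and the side with 1 array is assumed to vary like the other. Calls remained only without the stimulated WT array, and none was kept without any other array. The median difference of the 39 genes was 0.26 with all arrays and 0.47 without the stimulated WT array. It was 0.0005, 0.20 and 0.32 without the stimulated KO, the unstimulated KO or the unstimulated WT array. All 13 genes kept their sign. That was fixed in advance, since both stimulated arrays lay on the same side of both unstimulated ones. With no low-value filter the model called no gene, 0 of 19896, with 9 of the 41 genes and 3017 of all genes at an unadjusted p under 0.05. That table holds 4666 genes at the floor in all arrays, and so with no spread. With genotype dropped from the model and all 4 arrays kept, 7 rose and 4 fell, and Hmgcs1, Cyp51 and Acss2 missed the threshold (adjusted p = 0.065, 0.087 and 0.059).

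Without stimulation the genotypes were close. Of 40 measured genes, 0 were 2-fold higher and 0 lower in the unstimulated KO array than in the unstimulated WT array, where 3.31% and 1.42% of all genes were. The values ran from -0.68, for Srebf2, to 0.64, for Soat1, with a median of -0.03. The 18 sterol synthesis genes lay between -0.46, for Sc5d, and 0.17, for Ebp.

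After stimulation 8 genes were 2-fold higher in the KO than in the WT array and 1 was lower, of 40 measured, against 4.98% and 8.13% of all genes. Of the genes called by size over the whole array, 38.0% were on the higher side, but 59.97% with scaling to the median and 51.8% in the authors' values, so this split depends on the scaling. All 8 genes kept their call with scaling to the median, but that was fixed in advance. Such scaling shifts every gene above the floor by the same amount, here upward (Hmgcs1 from 1.22 to 1.43). Hmgcs1 and Idi1 lost the call in the authors' values (0.97 and 0.96) and under quantile normalization (0.97 and 0.96). The 8 were Cyp51 (1.76, or 3.38-fold), Msmo1 (1.59), Hmgcs1 (1.22), Sc5d (1.21), Idi1 (1.20), Dhcr7 (1.13), Mvd (1.12) and Scd2 (1.13). Except for Scd2 they are sterol synthesis enzymes, and in Mvd, Dhcr7 and Scd2 the stimulated WT array was the lowest of the 4. The lower gene was Acss2 (-1.95, or 3.87-fold lower in KO). Sqle (-0.01), Insig1 (-0.13), Fasn (0.05) and Lss (0.26), 4 of the genes that rose with stimulation, were near 0.

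**Figure D4:**
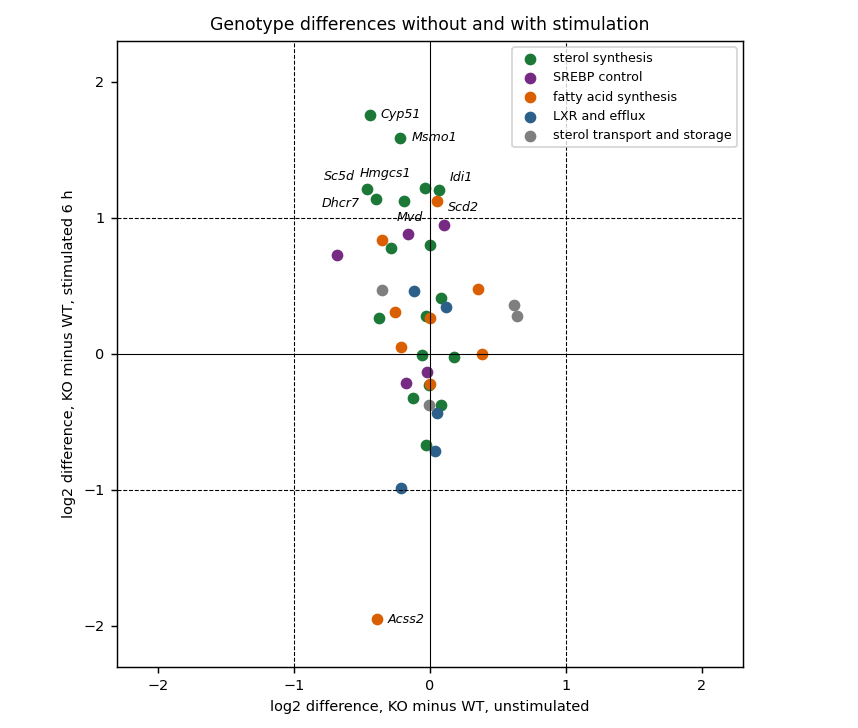
Log2 difference between the KO and the WT array for each gene without stimulation (horizontal) and after 6 h of stimulation (vertical), coloured by role, with dashed lines at 2-fold. Every gene lies within 2-fold horizontally, while 8 named genes lie above and Acss2 lies below 2-fold vertically.

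The difference of the stimulation differences, KO minus WT, uses the same 4 arrays. It was at least 2-fold positive for 12 of the 41 genes and negative for 1, against 7.07% and 10.6% of all genes. The all-gene split again depended on the scaling: 39.9% of called genes were on the positive side, 66.9% with scaling to the median and 52.6% in the authors' values. Among 5792 genes with a mean level above 0, 407 were on the positive and 275 on the negative side, with a median of 0.28. The 12 were the sterol synthesis genes Cyp51 (2.20), Msmo1, Sc5d, Dhcr7, Mvd (1.31), Hmgcs1 (1.26), Idi1 (1.13) and Acat2 (1.07), with Srebf2 (1.41), Scap (1.05), Fads1 (1.18) and Scd2 (1.07), and the negative one was Acss2 (-1.56). In the authors' values Acat2, Idi1, Scap and Scd2 fell short of 2-fold, at 0.998, 0.87, 0.78 and 0.99.

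By role, the median of this value was 0.72 for sterol synthesis, 0.84 for SREBP control, 0.26 for fatty acid synthesis, -0.49 for LXR and efflux and -0.31 for transport and storage, beside 0.09 over all measured genes. Set against the all-gene median of the same treatment, sterol synthesis stood 0.24 to 0.96 higher in the 8 treatments of the values, and LXR and efflux 0.28 to 0.69 lower. With 1 array a group the difference between genotypes has no replicate check. Over both stimulation states the limma model called 0 of the 39 genes for genotype, and 0 of all 13804, where 1 and 547 had an unadjusted p under 0.05. The 1 was Acss2, at -1.17 ± 0.43 (adjusted p = 0.9996). A gene whose genotypes differ only when stimulated adds as much to the residual of this model as to its genotype effect. Such a gene can hardly be called, as with Cyp51 at 0.66 ± 0.52. The count of 0 thus says little about the differences between the stimulated arrays. Markers of neutrophils, red cells, and monocytes and macrophages moved with the stimulated WT array, as given above. Of the monocyte and macrophage markers, 7 of 9 were 2-fold lower in the stimulated KO than in the stimulated WT array (median -3.37), and 7 of 9 were past 2-fold on the negative side in the difference of differences (median -4.14).

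Other genes of the pathways, from a list of 30, gave the following. Of 28 tested over both genotypes 4 rose and 2 fell (all genes 7.09% and 7.25%). Tmem97, a sterol-regulated membrane protein, rose most (2.83 ± 0.32, adjusted p = 0.0072), with levels of 3.09 against -0.16 in KO and 2.07 against -0.34 in WT, stimulated against unstimulated. The long-chain elongase Elovl1 (1.13 ± 0.28, adjusted p = 0.044) and Pdss1 (1.29 ± 0.31, adjusted p = 0.041), which makes the ubiquinone side chain, rose as well, as did the acyl-CoA synthetase Acsl5 (1.22 ± 0.31, adjusted p = 0.047), named after its value was seen. The lysosomal lipase Lipa (-2.32 ± 0.34, adjusted p = 0.012) and the LXR target Arl4c (-1.55 ± 0.30, adjusted p = 0.023) fell. By size, 8 of 29 were 2-fold higher and 3 lower in KO (all genes 13.5% and 13.8%), and 5 of 28 higher and 5 lower in WT (all genes 14.2% and 12.8%). In the difference of stimulation differences 5 of 29 were past 2-fold on the positive and 4 on the negative side (all genes 7.07% and 10.6%). The largest positive values were those of the citrate carrier Slc25a1 (1.57), the prenyltransferase subunit Pggt1b (1.40) and the acetoacetyl-CoA synthetase Aacs (1.29). Pggt1b had levels near the floor, from -4.49 in the stimulated WT to -3.30 in the stimulated KO array.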

How the data were processed

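The raw table deposited by the authors holds the intensity of 44397 spots on 4 arrays after all within-array steps of Agilent Feature Extraction 10.7.3.1, per the file headers; the version comes from the submitters' processing notes. A second deposited table holds log2 values normalized by the authors for 17878 probes, with GeneSpring GX 11.5.1 named per the file headers. The sources used here do not give its method. It correlated with a quantile normalization of the raw log2 signal at 0.99996 or more, which settles direction and column order. A correlation does not settle the scale. Its column medians were 8.54 (stimulated) and 8.53 (unstimulated) for KO and 8.51 and 8.54 for WT.

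Spots were averaged on the log2 scale, each array's 75th percentile (control probes left out) was subtracted, and values were raised to a floor (the median of the arrays' 40th percentiles). Of 39429 probes 26299 were named through RefSeq accessions (GRCm38.p6 table). A gene's probes were averaged. Genes above the floor in at least 2 arrays were tested with limma 3.58.1 in R 4.3.3 (lmFit, eBayes with trend), which was tested on simulated data. Between spots of one probe, the SD of a difference was 0.123 to 0.151 at levels above 1, and 0.520 to 0.702 between -3 and -1. It covers spots and not animals, and p-values measure the spread between these arrays. The number of arrays limits precision. Alternatives changed the scaling, floor, probes or values, and for the model also its filter, trend, second factor and arrays. Members by role get values where past 2-fold in a comparison; of other listed genes, those past 2-fold in both genotypes and the 3 largest differences of differences are named. Members and lists were chosen with earlier results of these data known.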

Additional observations from a re-analysis of the deposited data

Results flagged for a closer look

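In 4 of the 41 genes the stimulation difference was positive in KO and negative in WT, with a gap of at least 2-fold. The share of all genes that meet this rule is not given here, so the count is not read as unusual. Whatever the directions, a positive gap of at least 2-fold was found in 12 of the 41 genes and in 7.07% of all genes. The gap between the genotypes was not tested, since each group had 1 array. The gap was 1.31 for Mvd (0.16 in KO, -1.15 in WT), 1.18 for Fads1 (0.43 in KO, -0.76 in WT), 1.07 for Acat2 (0.70 in KO, -0.37 in WT) and 1.05 for Scap (0.87 in KO, -0.18 in WT). All 4 genes have 1 probe and were above the floor in all arrays. Each gap uses the stimulated WT array, in which the neutrophil and red cell markers were high, and their part in it was not tested.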

How the results depend on the processing

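Of the counts of members in each comparison, 105 stayed within 1.5 times of the reported one under an alternative and 21 did not. After stimulation in KO, 5 genes in place of 8 were lower under a 60th-percentile floor, and 5 under a pseudocount of 16. Between the unstimulated arrays the floor at the 20th percentile gave 1 higher and 1 lower in place of 0. Between the stimulated arrays 4 in place of 1 were lower in KO under a 20th-percentile floor and 3 with the brightest probe. In the difference of differences 3 in place of 1 were negative with the floor at the 20th percentile, 0 at the 60th and 2 with the brightest probe. Over both genotypes, 7 in place of 4 fell under a 60th-percentile floor, the pseudocount or the brightest probe, and 8 in the authors' values. With no filter 0 rose and 0 fell. Leaving out each array gave 0 to 9 that rose and 0 to 5 that fell, and 0 for genotype. Without the genotype block 7 rose and 4 fell. Labels give no replicate numbers that pair arrays. The cause of these moves was not tested. Over all genes the model called 979 higher and 1001 lower, and 1537 and 1932 in the authors' values. For genotype it called 0, but 84 higher and 120 lower with scaling to the median, 94 and 121 under the pseudocount, 74 and 50 in the authors' values, 19 and 8 under a 60th-percentile floor and 5 and 6 with the brightest probe. Of single members past 2-fold, 380 repeats kept the call, 33 lost it and none was reversed. Part of the 380 was fixed in advance. For the 27 genes with 1 probe the brightest probe is the same value, and a changed floor leaves brighter values as they were.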

Other observations

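Fatty acid oxidation genes, a list of 18 that burn rather than make lipid, mostly had negative stimulation differences. These were negative for 15 of the 18 in KO and 16 in WT, against 6713 of 14229 and 7454 of 14619 measured genes. Over both genotypes 4 of the 18 fell and 1 rose by limma, against 7.25% and 7.09% of all genes. By size 6 were 2-fold lower and 1 higher in KO (all genes 13.8% and 13.5%), and 7 lower and 1 higher in WT (all genes 12.8% and 14.2%). The genes named here were chosen after their values were seen. Hadh, the short-chain hydroxyacyl-CoA dehydrogenase, had levels of -0.07 in the stimulated against 1.51 in the unstimulated KO array, and -0.88 against 1.63 in WT (-2.04 ± 0.34, adjusted p = 0.016). Cpt1a, which admits long-chain fatty acids to mitochondria, fell by 1.68 ± 0.37 (adjusted p = 0.033), Eci2 by 1.64 ± 0.27 (adjusted p = 0.016) and Acaa2 by 1.62 ± 0.28 (adjusted p = 0.018). The carnitine carrier Slc25a20 was the member that rose (1.49 ± 0.30, adjusted p = 0.026). The median of the list was -0.68 in KO and -0.82 in WT. In the difference of stimulation differences 1 of 18 was past 2-fold, Hadha at 1.18, with a list median of 0.13. These calls rest on the same 4 arrays and share the limits given above for the model.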
